A study of Mus with 8 samples.

Results

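Fgf1, Fgf2, Fgf7, Fgf10 and Fgf18, which encode secreted fibroblast growth factors, and Fgfr1, Fgfr2, Fgfr3, Fgfr4 and Fgfrl1, which encode their receptors, were measured in subcutaneous mouse pancreatic tumours. The 10 genes were found through the RefSeq accession attached to each probe, out of 22911 named genes on the array. They were read by 20 probes, and 9 of the 10 were among the 16068 genes tested. The tumours grew from Pan02 cells, a mouse pancreatic cancer line, placed under the skin of 4 wild type hosts (Control) and of 4 hosts carrying Ext1 flox/flox and S100a4-Cre (Mutant). Control hosts are labelled B6, every tumour was taken 36 to 40 days after transplantation, and RNA came from the whole tumour. Host age and sex are not given in the sources used here. In the Mutant hosts the S100a4 promoter drives Cre, which is meant to remove Ext1 from fibroblasts. That promoter is also active in other cells, macrophages among them, and the transplanted Pan02 cells in both groups have no Cre. The wild type hosts carry neither the floxed alleles nor Cre, so effects of the floxed alleles, of Cre and of losing Ext1 cannot be told apart.

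Fibroblast growth factors signal by bringing receptor tyrosine kinases together at the cell surface, and the canonical ligands need heparan sulfate as a coreceptor to do so. Ext1 encodes a subunit of the enzyme that builds heparan sulfate chains. In carcinomas, ligands such as Fgf7 and Fgf10 typically come from mesenchymal cells and act on epithelial receptors, whereas Fgf2 and Fgfr1 act widely in stromal and tumour cells. The comparison asks whether transcripts of this ligand and receptor system differed between tumours in the hosts with and without the Ext1 deletion. It measures RNA only, and says nothing of how much ligand was bound or how strongly a receptor signalled.

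All 8 arrays lay on 1 slide, and each of its 2 rows held tumours 1 and 2 or tumours 3 and 4 of both groups. On each array 61.5% to 67.2% of the non-control probes stood well above background, and saturation was absent. Levels are given as log2 of the processed spot signal minus the 75th percentile of that array, so a level of 0 equals that percentile and a difference of 1 is 2-fold. A level belongs to its own probe and cannot be set against that of another gene. The number of arrays limits the precision, and p-values set a group difference against the spread between these tumours. The labelled cell type was checked against epithelial genes: the keratin genes Krt8 and Krt18 were well above background on every array, whereas Epcam was above it on none. Ext1 itself read 3.07 ± 0.76 (SD, n = 4) in Control and 3.15 ± 0.22 (SD, n = 4) in Mutant tumours, a difference of 0.07 (SE 0.36). Whether its probe lies in the deleted part is not given in the sources used here, and the Pan02 cells keep Ext1, so this reading does not check the host genotype. Fewer cells of a type and less RNA per cell cannot be told apart in these whole-tumour samples.

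None of the 9 ligand and receptor genes tested differed between the hosts beyond the spread of the tumours. In limma, 0 of the 9 genes tested passed an adjusted p of 0.05 in the higher direction, where the share over all genes was 0%, or in the lower direction, where it was also 0%. Of the 9, 0 had an unadjusted p under 0.05, against 467 of 16068 genes (2.91%), of which 301 were higher (1.87%) and 166 lower (1.03%). The adjusted p was 0.9996 in limma for each of the 9, and two-sided exact permutation p-values ran from 0.257 for Fgfr3 to 0.857 for Fgf1, where 4 against 4 tumours allow no less than 0.0286. The tumours of both groups overlapped for all 9 genes, while 228 of all genes tested (1.42%) had groups that did not overlap, 0.716% with Mutant tumours higher and 0.703% with them lower. The difference was above 0 for 5 members and below 0 for 4, and 52.4% of all genes lay above 0. The median difference was 0.11, beside 0.01 over all genes. The median changed sign with single tumours: it was -0.14 without Mutant 2, -0.13 without Control 3 and -0.08 without Mutant 3. These tests leave room for sizeable differences, since the 95% interval for Fgf7 ran from -2.20 to 3.17.

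**Figure D1:**
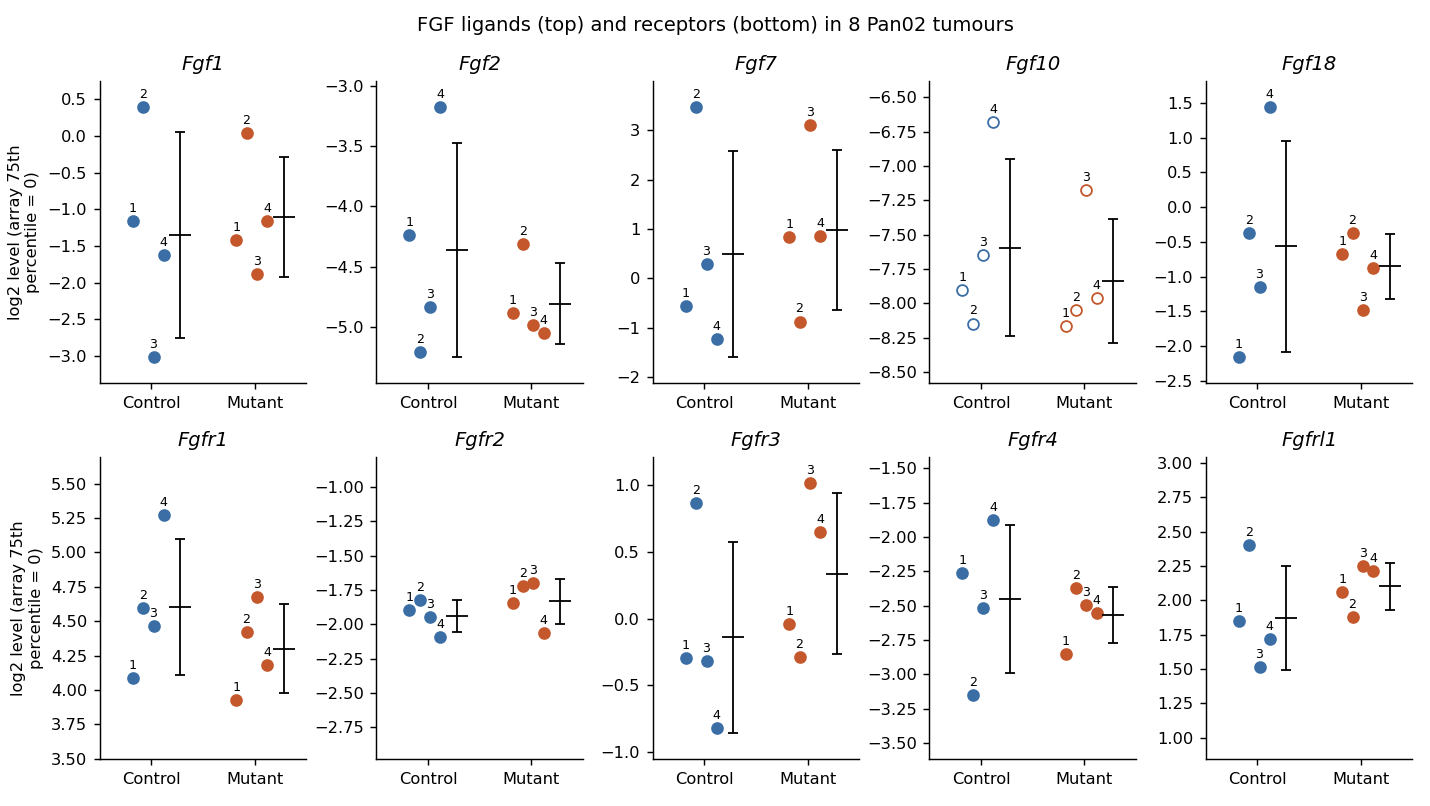
Level of each of the 10 genes in every tumour, in log2 units around that array's 75th percentile, with a panel per gene on its own scale. Numbered points are tumours (blue Control, orange Mutant, open where not well above background), and bars give the mean and SD (n = 4). The points of both groups overlap in every panel, all Fgf10 points are open, and Fgf7 spreads from -1.23 to 3.46.

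Among the ligands, Fgf7, the keratinocyte growth factor, varied most from tumour to tumour, with an SD of 1.75 over the 8 tumours. Its level was -0.57, 3.46, 0.30 and -1.23 in Control tumours 1 to 4, and 0.84, -0.87, 3.09 and 0.85 in Mutant tumours 1 to 4. Control 2 and Mutant 3 were the highest in their groups, so each group held 1 tumour far above the other 3. The group means were 0.49 ± 2.08 (SD, n = 4) in Control and 0.98 ± 1.62 (SD, n = 4) in Mutant, a difference of 0.49 (SE 1.16). That difference was -0.22 without Mutant 3 and -0.09 without Control 4, and 1.48 without Control 2.

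Fgf1, a ligand that binds every FGF receptor and lacks a classical secretion signal, read -1.16, 0.39, -3.01 and -1.62 in the Control tumours. It read -1.41, 0.04, -1.89 and -1.16 in the Mutant tumours. The lowest and the highest tumour were both Controls, and all 4 Mutant values lay between them. The means were -1.35 ± 1.40 (SD, n = 4) and -1.11 ± 0.82 (SD, n = 4), a difference of 0.25 (SE 0.72, 95% interval -1.42 to 1.91). Without Control 3 the difference was -0.31, without Mutant 2 it was -0.14, and with arrays weighted by quality it was -0.036. A further Fgf1 probe above background differed by -0.13 and followed the first with r = 0.62 over the 8 tumours, and its remaining probe was not above background on any array.

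Fgf2, basic fibroblast growth factor, is a mitogen of fibroblasts and endothelial cells that is stored on matrix heparan sulfate. Its level was -4.23, -5.21, -4.84 and -3.17 in Control tumours and -4.89, -4.31, -4.99 and -5.05 in Mutant tumours. Control 4 stood highest, and Control 2 lowest. The means were -4.36 ± 0.89 (SD, n = 4) and -4.81 ± 0.34 (SD, n = 4), a difference of -0.45 (SE 0.43, 95% interval -1.43 to 0.54). It was -0.05 without Control 4, -0.73 without Control 2 and -0.22 with normexp background correction. Its other probe was well above background on only 3 arrays, those of Control 3, Control 4 and Mutant 2, and no difference is given for it.

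Fgf18, a ligand best known from skeletal and lung growth, gave -2.16, -0.38, -1.15 and 1.44 in Control tumours. It gave -0.68, -0.38, -1.48 and -0.88 in Mutant tumours. Control 4 was again the highest, and Control 1 was the lowest. The means were -0.56 ± 1.52 (SD, n = 4) and -0.85 ± 0.47 (SD, n = 4), a difference of -0.29 (SE 0.70, 95% interval -1.92 to 1.33). The sign rested on Control 4, without which the difference was 0.37, and it also turned to 0.53 with arrays weighted by quality. Fgf10, a mesenchymal ligand of the Fgfr2 variant found on epithelia, was not well above background in any of the 8 tumours with either of its 2 probes, whose readings ran from -8.17 to -6.68. It was not tested, and no fold is given for it.

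**Figure D2:**
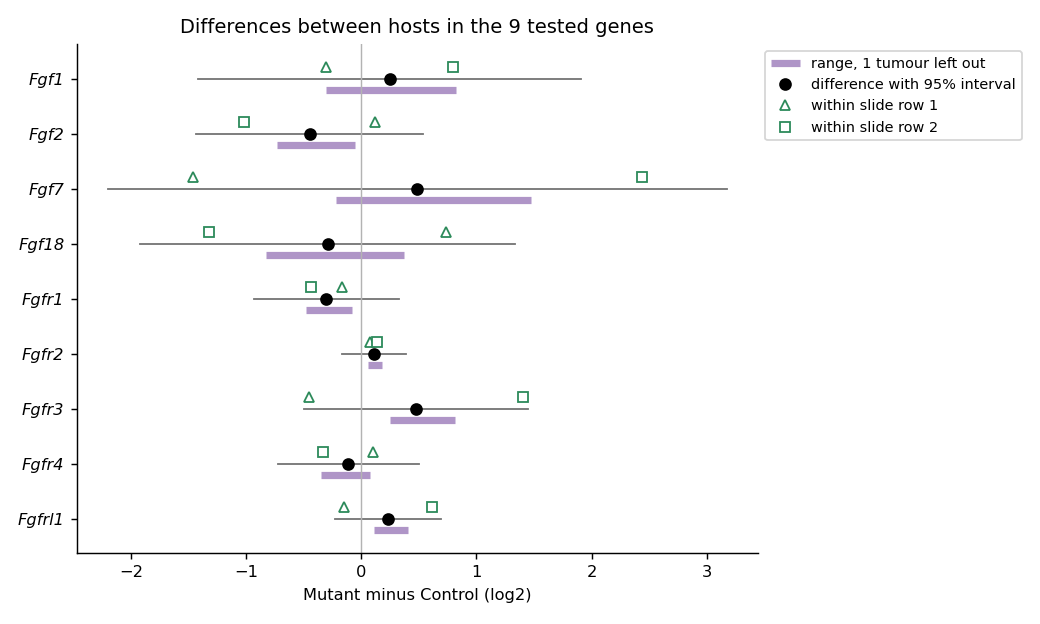
Mutant minus Control difference in log2 level for the 9 tested genes, where the black point and line are the difference and its 95% limma interval, the bar is the range with each tumour left out in turn, and triangles and squares are the differences within slide rows 1 and 2. Every interval includes 0, the interval of Fgf7 is the widest, from -2.20 to 3.17, and its rows lie on opposite sides of 0, at -1.46 and 2.44.

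Of the receptors, Fgfr1, the receptor typical of mesenchymal cells, read 4.08, 4.60, 4.47 and 5.27 in Control tumours and 3.92, 4.42, 4.67 and 4.18 in Mutant tumours. Control 4 was the highest and Mutant 1 the lowest, and the remaining values lay between them. The means were 4.60 ± 0.49 (SD, n = 4) and 4.30 ± 0.32 (SD, n = 4), a difference of -0.30 (SE 0.27, 95% interval -0.93 to 0.32). The Fgfr1 readings came from 4 probes that followed each other over the tumours, with r from 0.85 to 0.97, and all 4 differed below 0, by -0.65, -0.37, -0.30 and -0.17. The probe that stands for the gene, at -0.30, differed by -0.08 without Control 4.

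Fgfr2, whose splice variants serve epithelia or mesenchyme, was the steadiest of the genes. It read -1.90, -1.82, -1.95 and -2.09 in Control tumours and -1.85, -1.72, -1.70 and -2.06 in Mutant tumours. Mutant 2 and Mutant 3 were the highest, and the other Mutant tumours lay within the Control range. The means were -1.94 ± 0.11 (SD, n = 4) and -1.83 ± 0.17 (SD, n = 4), a difference of 0.11 (SE 0.12, 95% interval -0.17 to 0.38). The difference stayed between 0.06 and 0.18 when each tumour was left out in turn. A probe that stands for a whole gene does not tell the splice variants apart.

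Fgfr3, a receptor that restrains bone growth and is active in several epithelia, read -0.30, 0.87, -0.32 and -0.82 in Control tumours and -0.04, -0.29, 1.02 and 0.65 in Mutant tumours. Mutant 3 and Control 2, the tumours highest in Fgf7, were also the highest here. The means were -0.14 ± 0.72 (SD, n = 4) and 0.34 ± 0.61 (SD, n = 4), a difference of 0.48 (SE 0.42, 95% interval -0.49 to 1.45). Leaving out single tumours moved the difference between 0.25, without Mutant 3, and 0.81, without Control 2. Its other probe differed by 0.21.

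Fgfr4, the receptor that receives bile-acid related FGF signals in liver, read -2.26, -3.15, -2.51 and -1.88 in Control tumours. It read -2.85, -2.37, -2.49 and -2.55 in Mutant tumours. Both extremes were Controls, Control 4 at the top and Control 2 at the bottom. The means were -2.45 ± 0.54 (SD, n = 4) and -2.57 ± 0.20 (SD, n = 4), a difference of -0.11 (SE 0.26, 95% interval -0.73 to 0.50), which was 0.077 without Control 4. Its other probe gave a different picture near the detection limit, where it was well above background on 0 of 4 Control arrays and 3 of 4 Mutant arrays. Its Mutant mean was -5.08, against a measured Control mean of -5.88. For a bound, each Control array was set at the higher of its own reading and the lowest signal well above background there. Against that floor the Mutant mean was at least 1.53-fold higher. That probe was under the filter and was not tested in limma. Mutant 3, at -5.64, was not well above background and enters the Mutant mean at its reading. It lay under Control 3, at -5.62, so the groups overlapped for this probe too. How many of all probes show such a pattern was not counted.

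Fgfrl1, a receptor-like protein without a kinase domain that can bind ligands, read 1.85, 2.40, 1.52 and 1.72 in Control tumours. It read 2.06, 1.88, 2.25 and 2.21 in Mutant tumours. Every Mutant value was above 3 of the 4 Controls, and Control 2 was above them all. The means were 1.87 ± 0.38 (SD, n = 4) and 2.10 ± 0.17 (SD, n = 4), a difference of 0.23 (SE 0.20, 95% interval -0.23 to 0.69). The difference was 0.11 without Control 3 and 0.41 without Control 2, where the limma adjusted p was 0.798.

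**Figure D3:**
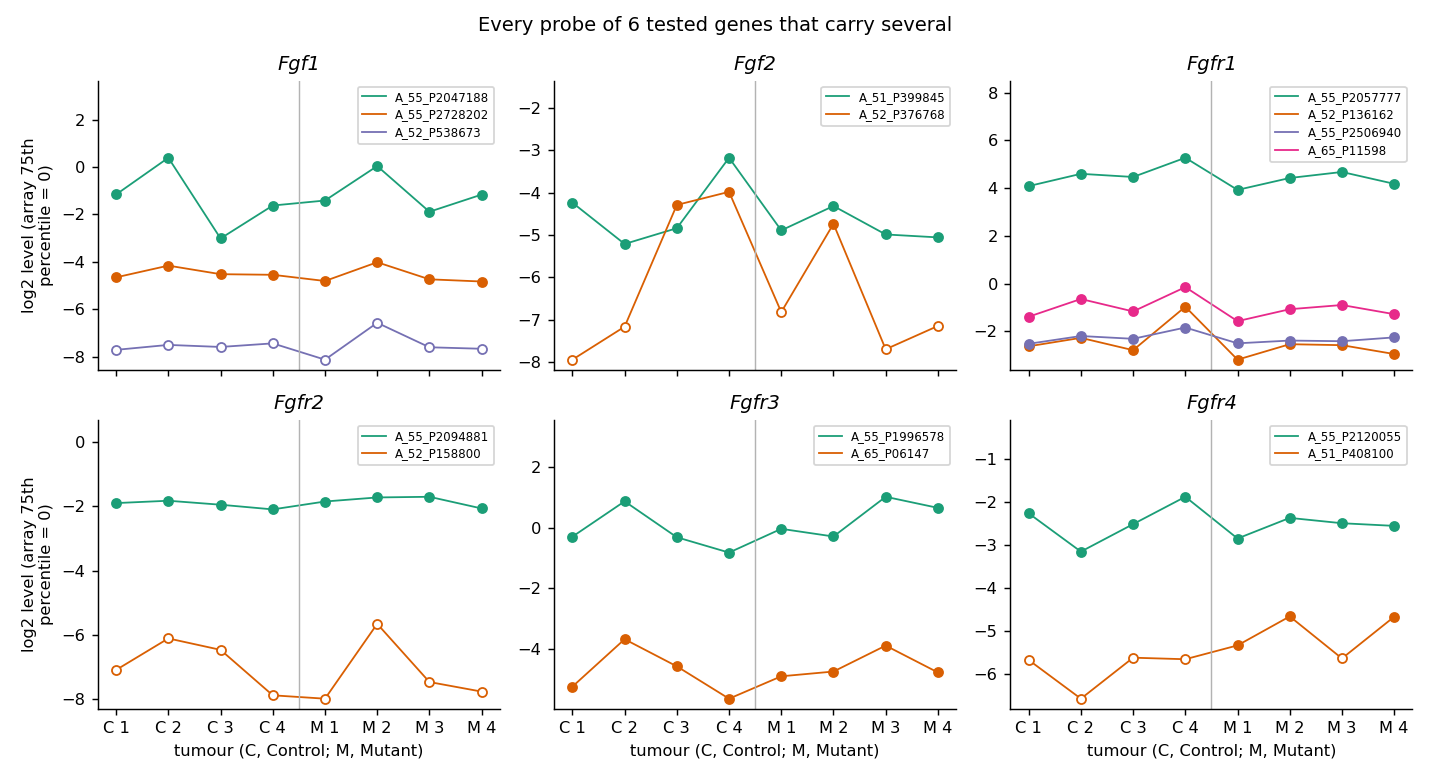
Log2 level of every probe, relative to the array's 75th percentile, for the 6 tested genes read by more than 1 probe, across Control (C) and Mutant (M) tumours, with open points for readings not well above background. The 4 Fgfr1 probes all peak in Control 4, and the dimmer Fgfr4 probe is open in all 4 Control tumours and filled in 3 of the 4 Mutant tumours.

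The members, like most genes tested, differed more between single tumours than between hosts. The difference was smaller than the pooled SD of the tumours for 9 of the 9 members, against 85.0% of all genes tested. The SD over the 8 tumours was above the all-gene median of 0.26 for 8 of the 9, and Fgfr2 was the exception. The SD among Control tumours exceeded that among Mutant tumours for 8 of 9 members, but this also held for 79.7% of all genes. The lowest tumour was a Control for 8 of 9 members, against 71.8% of all genes, and the highest was a Control for 7, against 68.2%. The sign of the difference was opposite in the slide's rows for 7 of the 9, all but Fgfr1 and Fgfr2, and for 62.9% of all genes. Fgf7, for example, differed by -1.46 in the first row and 2.44 in the second, where each row held 2 tumours of each group. Fgf18 differed by 0.74 and -1.32, Fgf2 by 0.12 and -1.01, and Fgfr3 by -0.45 and 1.41. Fgfr1 lay below 0 in both rows, at -0.17 and -0.44, and Fgfr2 above 0 in both, at 0.08 and 0.14.

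High values of most members fell into 2 sets of tumours. Control 4 was highest in Fgf2, Fgf18, Fgfr1 and Fgfr4, and Control 2 and Mutant 3 took the first 2 places in Fgf7, Fgfr3 and Fgfrl1. Fgf1, highest in Control 2 and Mutant 2, and Fgfr2, highest in Mutant 3 and Mutant 2, followed neither set. The array of Control 4 had the lowest 75th percentile signal, 576 against 665 to 741, and the highest centred median, -3.35. How many of all genes peak in these tumours was not counted. Correlations over the 8 tumours were computed for all 36 pairs of members, with two-sided exact permutation tests and Benjamini-Hochberg adjustment over the 36. By Pearson's r, 1 pair passed an adjusted p of 0.05. This was Fgf7 with Fgfr3 (r = 0.92, exact p = 0.000546, adjusted 0.0196; Spearman's rho 0.88, exact p = 0.00724, adjusted 0.0652). Without Control 2 and Mutant 3, the tumours farthest from the median of Fgf7, r was 0.80 over 6 tumours. The other Fgfr3 probe followed Fgf7 with r = 0.91. By Spearman's rho 2 pairs passed, Fgfr3 with Fgfrl1 and Fgf2 with Fgf7.

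For Fgfr3 with Fgfrl1, rho was 0.95 (exact p = 0.00114, adjusted 0.0205), r was 0.88 (exact p = 0.00543, adjusted 0.0652), and r was 0.77 without the 2 tumours farthest from the median of Fgfr3. Fgf2 and Fgf7 ran in opposite directions, with rho = -0.95 (adjusted exact p = 0.0205) and r = -0.77 (exact p = 0.0234, adjusted 0.132), and r was -0.81 without the 2 farthest tumours. The Fgf2 probe was dim, from -5.21 to -3.17, where the lowest signals well above background on the arrays ran from -5.97 to -5.45. Fgf2 with Fgfr4 reached r = 0.87 (exact p = 0.00290, adjusted 0.0522), which fell to 0.67 without Control 1 and Control 4. Each slide row held 4 tumours, too few for a correlation within a row. Levels of 1 tumour share an array, its centring and its mixture of cells.

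**Figure D4:**
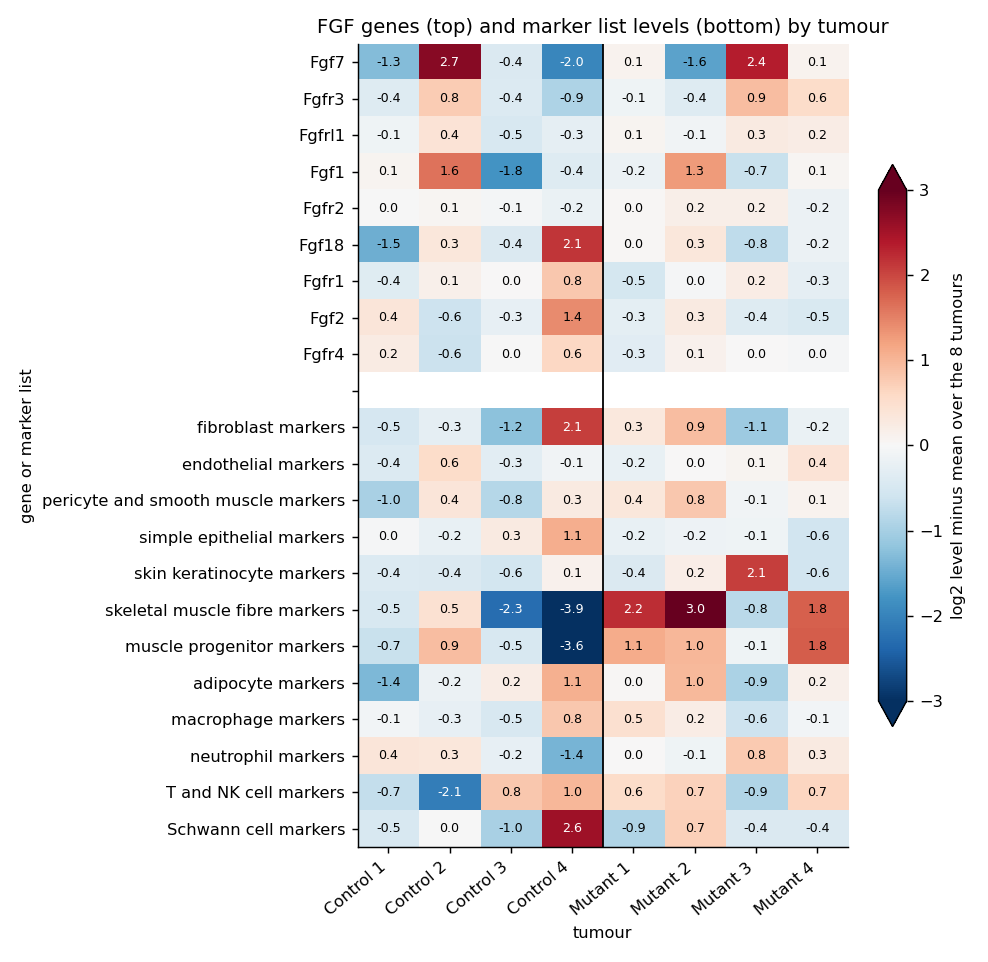
Deviation in log2 of each tested gene (top) and of each marker list (bottom) from its mean over the 8 tumours, with Control tumours on the left and Mutant tumours on the right, red high and blue low. Control 2 and Mutant 3 are both high in Fgf7 and Fgfr3, and Control 4 is high in Fgf2, Fgf18, Fgfr1 and Fgfr4 as well as in the fibroblast (2.07) and Schwann cell (2.55) lists.

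Markers of cell types differed between the same tumours. List levels are the mean deviation of a list's genes from their own means over the 8 tumours, in log2. Control 4 had the highest fibroblast level, 2.07, where the other tumours ran from -1.24 to 0.92. The genes of that list did not all follow. Col1a1, Col1a2 and Col3a1 were highest in Control 4, at 8.23, 9.26 and 8.06. Pdgfrb was lowest there, at 3.26 against 3.76 to 4.39 elsewhere, and Pdgfra, at 2.52, lay within the 2.21 to 3.56 of the other tumours. All 11 of 11 fibroblast genes were measured, and their signals, in multiples of the array's 75th percentile, summed to 106 to 1552 in Control and 183 to 800.3 in Mutant tumours. Control 4 also had the highest Schwann cell level, 2.55 (4 of 4 genes measured), the highest simple epithelial level, 1.08 (5 of 7 measured, with Epcam above background on no array), and the lowest skeletal muscle level, -3.88. It was highest too in the macrophage list, 0.81 (6 of 6 measured), and the adipocyte list, 1.07 (3 of 6 measured), and lowest in the neutrophil list, -1.40 (4 of 5 measured), and the muscle progenitor list, -3.60 (3 of 5 measured). Of the macrophage genes, C1qa, Cd68 and Mrc1 were highest in Control 4. Mutant 1 was slightly above it in Csf1r (6.27 against 6.25), C1qb (4.65 against 4.55) and Adgre1 (4.12 against 4.09). Of the adipocyte genes, Lpl and Lep were highest in Control 4, and Fabp4 was highest in Mutant 2 (2.14 against 1.86). Within the neutrophil list, S100a8 and S100a9 were lowest in Control 4, at 0.85 and 1.99. Retnlg went the other way, at 1.11 there, and only Mutant 3 was higher. Control 2 and Mutant 3, the tumours rich in Fgf7, had fibroblast levels of -0.26 and -1.10. Their T and NK cell levels, -2.07 and -0.91 (5 of 7 genes measured), were the lowest of all 8. Mutant 3 had the highest skin keratinocyte level, 2.07 (6 of 8 measured, with Krt1 and Dsg3 above background on no array), while Control 2 stood at -0.42. The genes of that list were split. Krt5, Krt10 and Lor were highest in Mutant 3, Krt14 in Mutant 2, and Krtdap and Trp63 in Control 4.

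Skeletal muscle genes had the largest median difference of the marker lists. All 9 of 9 lay above 0, against 52.4% of all genes tested, with a median of 2.90. Of the 9, 7 had an unadjusted p under 0.05 in limma, against 2.91% of all genes, although none passed the adjusted threshold of limma. The summed signals of the 9 muscle genes ran from 1.60 to 25.0 in Control and from 11.9 to 101.8 in Mutant tumours. Of the muscle progenitor list, Pax7 and Myf5 were above background on no array. The 3 genes of that list that were tested all lay above 0, and 0 were called. Myog differed by 2.66 (SE 1.23), Cdh15 by 2.23 (SE 1.22) and Myod1 by 0.84 (SE 0.58). In the simple epithelial list all 5 genes tested lay below 0, with a median of -0.53. Of these, 2 had an unadjusted p under 0.05 in limma, and 0 were called. The part of these cell types in the levels of the FGF ligands and receptors was not tested.

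The 3 members with the largest SD were set against all 16067 other genes by their pattern over the 8 tumours, as a description. The genes most like Fgf7 included Rabggta (r = 0.97) and Pou4f2 (r = 0.97). Those most like Fgf18 were Dennd2c (r = 0.99), Agap3 (r = 0.97) and Mmp13 (r = 0.97), a collagenase gene. Those most like Fgf1 were Slc29a4 (r = 0.94), Fah (r = 0.93) and Gm10413 (r = 0.93). Each is among the highest of 16067 coefficients over the same 8 arrays, and no test is given.

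No gene in the other lists of the pathway passed the adjusted threshold of limma. Of 17 other FGF ligand genes, 10 were tested, 0 were called, and 7 of the 10 differed below 0, with a median of -0.20 that was -0.33 without Control 2 and -0.08 with no filter on dim probes. Fgf8, an embryonic patterning ligand, read -3.54, -3.69, -3.66 and -3.38 in Control and -3.83, -3.95, -3.91 and -3.83 in Mutant tumours. All 4 Mutant values were under all 4 Controls, as for 0.703% of all genes tested. The difference was -0.31 (SE 0.11), with a limma adjusted p of 0.9996. Fgf15, a hormone-like ligand of the gut, differed by -1.16 (SE 0.63). The intracellular relatives Fgf11 and Fgf12, which do not act through FGF receptors in the usual way, differed by -0.63 (SE 0.30) and -0.27 (SE 0.12). Fgf4, Fgf5, Fgf6, Fgf16, Fgf20 and Fgf22 were above background on 0 arrays and Fgf13 on 1.

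Among coreceptors and binding proteins, 4 of 7 genes were tested and 0 called, 3 above 0 and 1 below, with a median of 0.56. That median was -0.05 without Control 3, 0.24 without Control 1 and 0.85 without Control 2. Flrt1, Flrt3 and Flrt2, membrane proteins that bind FGF receptors, differed by 1.15 (SE 0.90), 0.36 (SE 0.39) and 0.76 (SE 1.30), and Fgfbp3, a carrier of FGF, by -0.26 (SE 0.35). Kl and Klb, the klotho coreceptors that hormone-like FGFs need, were above background on no array. Fgf23, a hormone-like ligand that uses Kl, was singled out after its values were seen. Its probe was well above background in all 8 tumours, from 4.15 in Control 4 to 4.76 in Mutant 2, with a difference of 0.07 (SE 0.15). Whether that signal is specific to Fgf23 was not tested.

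Genes of heparan sulfate synthesis and editing whose products make the chain features that FGFs and their receptors bind gave 10 tested of 11 and 0 called, 7 above 0 and 3 below, with a median of 0.08 that ran from 0.0058 without Mutant 2 to 0.21 without Control 2. Ext2, the partner subunit of Ext1, differed by -0.28 (SE 0.12), with a limma adjusted p of 0.9996. Its groups did not overlap, with Mutant tumours lower, as for 0.703% of all genes tested. Sulf2, which removes sulfate groups from finished chains, differed by 0.26 (SE 0.16), the epimerase gene Glce by -0.30 (SE 0.28) and the sulfotransferase gene Hs6st1 by 0.41 (SE 0.41).

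Of the 21 genes that relay the signal inside the cell, 21 were tested and 0 called, 8 above 0 and 13 below, with a median of -0.03 that ran from -0.12 without Control 4 to 0.01 without Control 2 and was -0.12 with array weights and -0.07 with the mean of a gene's probes. Those of smallest unadjusted p included Pik3ca, at -0.43 (SE 0.29), Map2k1, at -0.29 (SE 0.21), and Mapk3, at -0.18 (SE 0.16), which encode a lipid kinase subunit and kinases of the ERK cascade. All 13 feedback and target genes were tested and 0 called, 7 above 0 and 6 below, with a median of 0.02 that ran from -0.15 without Control 4 to 0.16 without Control 2 and was -0.05 with normexp and -0.01 with median centring. Il17rd, a membrane inhibitor of FGF signalling, differed by 0.64 (SE 0.38). Spred2, an inhibitor of the ERK cascade, differed by -0.24 (SE 0.15), and the transcription factor genes Etv5 and Etv4 by -0.28 (SE 0.19) and -0.25 (SE 0.19). The fit of Egr1, an immediate early gene in this list, dropped Control 1, where its spot was an outlier.

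**Figure D5:**
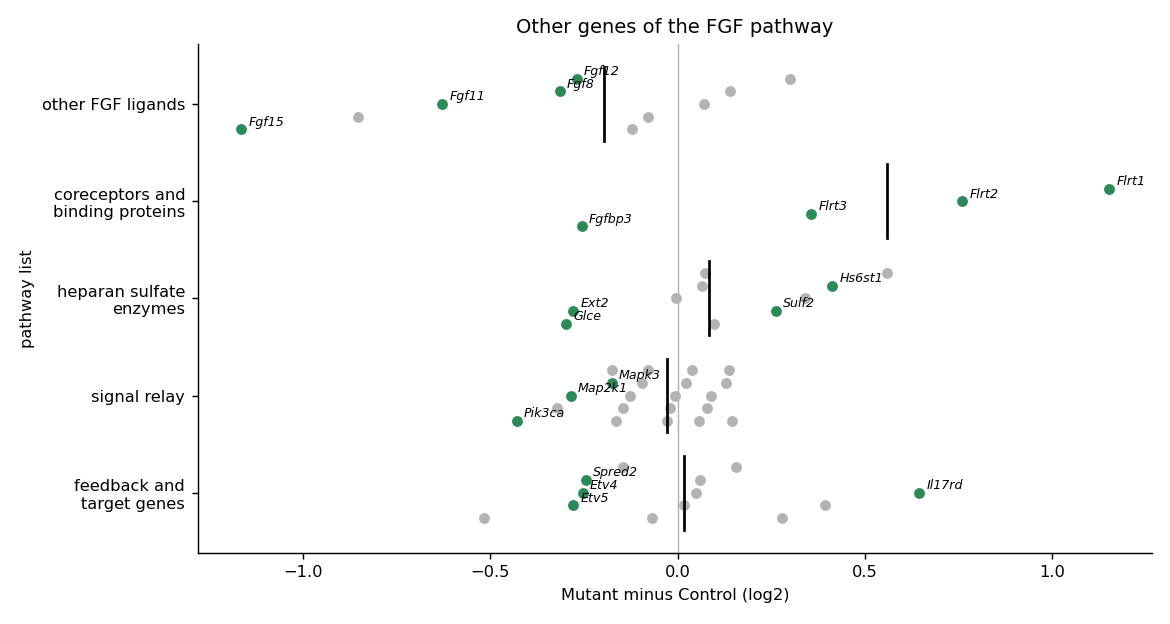
Mutant minus Control difference in log2 level of each tested gene in the 5 pathway lists, where named genes are green, other genes grey, and a black bar marks the median of a list. Every list spreads across 0, and the coreceptor and binding protein list has the highest median, 0.56, from 4 genes.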

How the data were processed

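Total RNA of 8 tumours was labelled with Cy3 and hybridised to 1-colour Agilent arrays, per the labels' protocols. The deposited scanner files hold processed spot intensity, which the authors obtained with Agilent Feature Extraction, version 10.7.3.1 per the file headers and 9.1 per the submitters' processing notes. The deposited table holds the same intensity, equal within 0.01% for 99.49% to 99.51% of probes, with column medians of 52.8 to 61.8. Flags, which are yes or no marks and not intensities, cover outlier, saturated and well-above-background spots, per the file headers.

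Control spots were removed, as were the 66 to 117 spots an array that carried an outlier mark. Processed intensity was put on the log2 scale and centred on the 75th percentile of its array. A probe entered the test if 4 or more of its 8 readings were well above background, and the probe of highest mean stood for its gene. Genes were named through RefSeq accessions (32994 of 56605 probes, 58.3%), and a differing genome build meant that no coordinates were used. limma 3.58.1 in R 4.3.3 (lmFit and eBayes, Mutant against Control) tested 16068 genes, with Benjamini-Hochberg adjustment and a threshold of 0.05. Single genes were tested by exact permutation in R 4.3.3. Correlations were tested by exact permutation in Python 3.11.15, with ranks from scipy 1.17.1. The code was tested on simulated data. The design text gives 4 mice per group.

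The members and lists were chosen with earlier results of these data known. All members were named, with up to 4 genes of smallest unadjusted p per pathway list, the 3 most similar genes for each of the 3 members of largest SD, and Ext1; some genes given by this rule are not reported here. Alternatives covered background correction, normalization, centring, filters, probe choice, the deposited table, array weights, blocks and leaving out each tumour.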

Additional observations from a re-analysis of the deposited data

Results flagged for a closer look

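Of 126 groups of 4 tumours checked, 3 had a tumour far from the other 3 by Dixon's criterion, and chance flags about 1 in 20 groups. Over all genes tested, 6.26% of groups were far out in this way. For Fgf1, a further probe read -4.02 in Mutant 2, where the other Mutant tumours read -4.83 to -4.74. For Fgfr3, the further probe read -3.89 in Mutant 3, where the others read -4.90 to -4.75. The T and NK cell list level was -0.91 in Mutant 3, where the other Mutant tumours lay between 0.55 and 0.69.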

How the results depend on the processing

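Under every alternative run, 0 genes and 0 members passed the adjusted threshold. Of all genes, 467 had an unadjusted p under 0.05. That count was 1475 with array weights, 1132 when each probe was tested by itself (probes, not genes), and 195 to 972 when each tumour was left out, lowest without Mutant 1 and highest without Control 2. It was 305 without Control 1 and 257 without Mutant 4. Among members it was 0 to 1. The difference of Fgf1 ran from -0.31 to 0.83 when a tumour was left out and was -0.036 with array weights. That of Fgf18 ran from -0.83 to 0.37 and was 0.53 with array weights. That of Fgf7 ran from -0.22 to 1.48 and that of Fgfr4 from -0.35 to 0.077. The cause was not tested. The correlation of Fgf7 with Fgfr3 ran from 0.88 to 0.96, that of Fgfr3 with Fgfrl1 from 0.84 to 0.96 and that of Fgf2 with Fgf7 from -0.83 to -0.74 when a tumour was left out. The last missed an unadjusted exact permutation p of 0.05 without Control 2 (p = 0.0645). With the replicate number as a block, 371 genes had an unadjusted p under 0.05 and no call changed. Deviations of same-numbered tumours correlated at 0.08, -0.31, 0.05 and -0.31. These values lay within the -0.46 to 0.65 of tumours with differing numbers, so they cannot tell whether the numbers pair the tumours. With the slide row as a block the count was 439. The feedback list's median of 0.02 was -0.05 with normexp, -0.01 with median centring, -0.03 with the filter on all 8 arrays and -0.09 with array weights. Signal near background limits Fgf10, the other probes of Fgf2, Fgfr2 and Fgfr4, and the remaining probe of Fgf1.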
